A study of Mus with 12 samples.

Results

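The 6 genes described here encode parts of the endothelin, angiotensin and CGRP (calcitonin gene-related peptide) systems: Edn1, Ece1, Ednrb, Ace, Ramp1 and Calcrl. They were taken by gene name from a table of 27294 genes measured by RNA sequencing in mouse primary peritoneal macrophages, and all 6 had a row and passed the filter on low counts. They were selected on earlier results of these data, namely their levels and changes over the 4 groups, among them a rise of Edn1 with oxLDL in wild-type cells and a high level of Ace in knockout cells. The values of these genes in comparisons that involve wild-type libraries are therefore a description, given without p-values. The 12 libraries form 4 groups of 3: knockout (KO) with oxLDL, KO untreated, wild type (WT) with oxLDL and WT untreated. OxLDL, or oxidised low-density lipoprotein, is the altered cholesterol particle that macrophages take up in artery walls; it is the treatment label, while the sample titles say LDL. The labels used here state neither its dose and time nor the strain, the age of the mice or the promoter of any Cre. The labels give the genotype as KO with no gene, and the series title names macrophage WEE1. Nothing in the labels says whether the 3 libraries of a group came from separate animals, so errors measure the spread between these libraries, which may be technical.

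Endothelin-1 is a peptide that constricts blood vessels. It is made as a long precursor, the product of Edn1, and endothelin-converting enzyme, the product of Ece1, makes the final cut that gives the active peptide. Ednrb encodes the endothelin B receptor, which signals and also clears the peptide. Angiotensin-converting enzyme, the product of Ace, is a membrane peptidase that turns angiotensin I into the vasoconstrictor angiotensin II and also breaks down bradykinin. CGRP is a vasodilator released by sensory nerves. Its receptor is a pair of proteins: Calcrl, a G protein-coupled receptor, and Ramp1, a single-pass partner that gives it its preference for CGRP. With Ramp2 or Ramp3 in place of Ramp1, Calcrl forms adrenomedullin receptors.

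The genes lie on separate chromosomes of GRCm38, as the deposited coordinates place them. Edn1 (ENSMUSG00000021367) spans 42301476 to 42307990 on chromosome 13, plus strand. Ece1 (ENSMUSG00000057530) spans 137862237 to 137965229 on chromosome 4, plus strand. Ednrb (ENSMUSG00000022122) spans 103814625 to 103844402 on chromosome 14, minus strand. Ace (ENSMUSG00000020681) spans 105967945 to 105989964 on chromosome 11, plus strand. Ramp1 (ENSMUSG00000034353) spans 91179822 to 91206790 on chromosome 1, plus strand. Calcrl (ENSMUSG00000059588) spans 84330626 to 84425411 on chromosome 2, minus strand. Each value covers a whole gene, so exons, introns and isoforms are not told apart.

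Library totals ran from 53588814 to 76809931 counts. The lowest were replicate 2 of WT with oxLDL, at 53588814, and replicate 2 of untreated WT, at 54574550. Every other library had at least 74672027. Levels are FPKM, fragments per kilobase of transcript scaled to library size, which allows levels of different genes to be set side by side. Wee1, the gene the title names, had 1.38 ± 0.19 FPKM in KO with oxLDL, 1.48 ± 0.23 in untreated KO, 1.62 ± 0.17 in WT with oxLDL and 3.05 ± 0.23 in untreated WT (SD, n = 3 each). The KO libraries overlapped the WT libraries with oxLDL, and a whole-gene value cannot reveal a missing exon, so Wee1 is a weak check of the labels. All 8 macrophage markers were present in every library. Their summed FPKM, most of it from Lyz2 at 8171 to 18667, was 10661 to 11301 in KO with oxLDL, 11097 to 11807 in untreated KO, 14937 to 15918 in WT with oxLDL, against 21069 to 21466 in untreated WT. The markers did not move as one: Cd68 was higher in KO than in WT, by 0.24 log2 with oxLDL and 0.40 untreated, while the other 7 were lower in both, and with oxLDL in WT Adgre1, Fcgr1 and Cd14 rose by 0.89, 2.09 and 2.43 log2 while Lyz2 and Csf1r fell. Because these genes are also known from endothelial cells, 10 endothelial markers were listed, of which 7 had a row. Pecam1, Cdh5, Tek, Tie1 and Egfl7 were below 0.5 FPKM in every library, while Vwf and Kdr were above it. The 7 summed to 21.9 to 24.9 FPKM in KO with oxLDL, 23.6 to 24.8 in untreated KO, 7.02 to 7.48 in WT with oxLDL, against 10.2 to 10.9 in untreated WT. In RNA from a cell population, fewer cells of a type and less RNA per cell cannot be told apart.

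Edn1 was high in a single group, WT with oxLDL, and close to the limit of detection in the other 3. It had 0.0461, 0.136 and 0.158 FPKM in KO with oxLDL and 0.0236, 0.0690 and 0.0415 FPKM in untreated KO. It had 32.1, 33.8 and 37.1 FPKM in WT with oxLDL, against 0.261, 0.0960 and 0.0922 FPKM in untreated WT. Every WT library with oxLDL lay far above all 9 others, while KO with oxLDL overlapped both untreated groups. The read counts behind these values were 8 to 28 in KO with oxLDL, 4 to 12 in untreated KO, 4074 to 6213 in WT with oxLDL, against 12 to 45 in untreated WT. Edn1 stood above 93.2% of the tested genes in WT with oxLDL by mean FPKM, and above 17.5% of them in untreated WT. Its log2 change with oxLDL in WT was 8.18 ± 0.29 (SE), and its log2 difference of KO against WT with oxLDL was -8.50 ± 0.29. Log2 changes are fitted by edgeR to the counts, with TMM scaling of the libraries, and are called at an adjusted p under 0.05 over all genes tested. Untreated KO set against untreated WT was at -1.67 ± 0.54 log2, and this smaller difference was not stable. The call was lost on leaving out replicate 1 (-1.37) or 3 (-1.61) of untreated KO, or replicate 1 of untreated WT (-0.96), the untreated library with the most Edn1 counts.

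**Figure D1:**
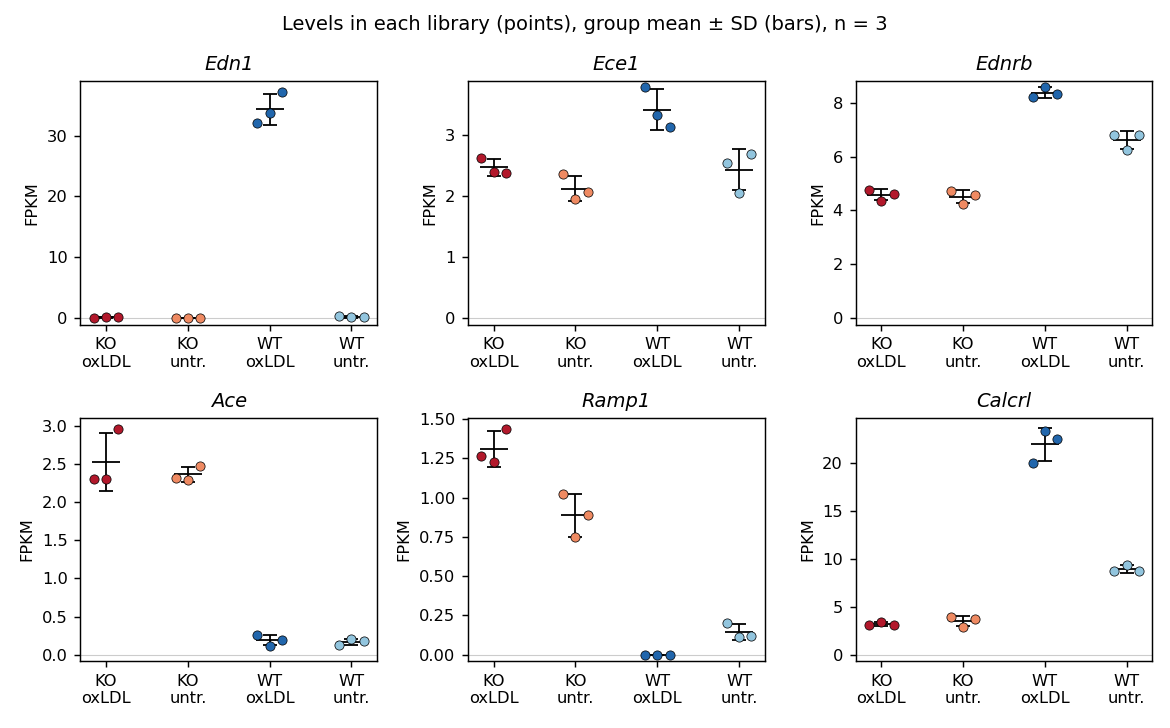
FPKM of each gene (vertical axis, its own scale from 0 in each panel) in the 12 libraries, as points, with the group mean and SD as bars (n = 3 each). Edn1, Ece1, Ednrb and Calcrl were highest in WT with oxLDL, whereas Ace and Ramp1 were highest in the KO groups and Ramp1 was at 0 in WT with oxLDL.

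Ece1 and Ednrb varied far less than the ligand gene and were also highest in WT with oxLDL. Ece1 had 2.62, 2.40 and 2.38 FPKM in KO with oxLDL, 2.35, 1.95 and 2.06 in untreated KO, 3.79, 3.32 and 3.13 in WT with oxLDL and 2.55, 2.05 and 2.69 in untreated WT. The WT libraries with oxLDL lay above all others, and the untreated WT libraries overlapped both KO groups. Ece1 rose with oxLDL in WT by 0.90 ± 0.12 log2 and was lower in KO than in WT with oxLDL (-0.77 ± 0.12). Its untreated difference of KO against WT, -0.10 ± 0.12, was not called.

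Ednrb, the only endothelin receptor gene tested, kept the groups apart more clearly than Ece1. It had 4.77, 4.37 and 4.60 FPKM in KO with oxLDL, 4.72, 4.24 and 4.59 in untreated KO, 8.22, 8.60 and 8.33 in WT with oxLDL and 6.81, 6.25 and 6.80 in untreated WT. Both WT groups lay above both KO groups, and the KO groups overlapped each other. Ednrb rose with oxLDL in WT by 0.75 ± 0.07 log2, and it was lower in KO than in WT with oxLDL (-1.17 ± 0.07) and untreated (-0.45 ± 0.07). It was higher than Edn1 in FPKM in all 9 libraries outside WT with oxLDL, and lower than Edn1 in those 3. The other receptor gene, Ednra (endothelin A), was not tested, with at most 20 counts in a library. Neither were the other 3 genes of the endothelin list that had a row, Edn3, Ece2 and the peptidase gene Mme, so 0 of its 7 genes entered the test.

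Ace had the opposite pattern, with high levels in KO cells and low levels in WT cells whatever the treatment. It had 2.31, 2.31 and 2.97 FPKM in KO with oxLDL, 2.32, 2.30 and 2.48 in untreated KO, 0.252, 0.119 and 0.188 in WT with oxLDL and 0.122, 0.202 and 0.182 in untreated WT. Every KO library was above every WT library, while the treatment groups overlapped within each genotype. Ace had 965 to 1259 counts in the KO libraries and 36 to 105 in the WT libraries. KO exceeded WT by 3.43 ± 0.22 log2 with oxLDL and by 3.92 ± 0.23 log2 untreated. The change with oxLDL in WT, 0.59 ± 0.24 log2, was not called, and it was called without WT replicate 2 with oxLDL (0.81) or without untreated WT replicate 2 (0.72). The endothelial marker sum given above was also higher in KO, through Vwf, at 18.0 to 20.9 FPKM in KO with oxLDL, 19.2 to 20.2 in untreated KO, 2.13 to 2.46 in WT with oxLDL, against 6.03 to 6.73 in untreated WT. Its part in the Ace and Ramp1 differences was not tested, and the other 5 endothelial markers together had at most 0.223 FPKM in KO with oxLDL, 0.169 in untreated KO, 0.486 in WT with oxLDL and 0.258 in untreated WT.

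Ramp1 and Calcrl, the paired subunits of the CGRP receptor, moved in opposite directions. Ramp1 had 1.26, 1.23 and 1.44 FPKM in KO with oxLDL, 1.02, 0.748 and 0.891 in untreated KO, 0 in each of the 3 WT libraries with oxLDL, and 0.201, 0.114 and 0.119 in untreated WT. No 2 of these groups overlapped. The counts were 298 to 350 in KO with oxLDL, 182 to 244 in untreated KO, 0 in WT with oxLDL, against 20 to 50 in untreated WT. A group with 0 counts is set here at a floor of 3 counts over its 3 libraries, scaled by effective library size. At that floor Ramp1 was 24.5-fold lower in WT with oxLDL than in untreated WT. It was 229-fold higher in KO with oxLDL than in WT with oxLDL. These folds take the counts of the other group as exact, so they are not strict lower limits. In untreated cells Ramp1 was higher in KO than in WT by 2.68 ± 0.28 log2.

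Calcrl was abundant where Ramp1 was lowest. It had 3.09, 3.44 and 3.15 FPKM in KO with oxLDL, 3.89, 2.90 and 3.75 in untreated KO, 20.0, 23.4 and 22.5 in WT with oxLDL and 8.72, 9.39 and 8.73 in untreated WT. The order of the groups was WT with oxLDL, untreated WT and then both KO groups, which overlapped. Calcrl rose with oxLDL in WT by 1.70 ± 0.09 log2, and it was lower in KO than in WT with oxLDL (-3.07 ± 0.10) and untreated (-1.24 ± 0.09). It stood above 57.8% of the tested genes in KO with oxLDL, 59.6% in untreated KO, 89.8% in WT with oxLDL and 75.6% in untreated WT.

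The balance of the subunits therefore differed by genotype on the FPKM scale. The level of Calcrl was 2.19 to 2.80 times that of Ramp1 in KO with oxLDL, 3.81 to 4.21 times in untreated KO and 43.4 to 82.6 times in untreated WT, and no ratio can be given for WT with oxLDL. The same held with the other partners added. Ramp1, Ramp2 and Ramp3 together were 38.0 to 48.4% of the Calcrl level in KO with oxLDL, 24.6 to 27.9% in untreated KO, 0 to 2.63% in WT with oxLDL, against 1.43 to 4.92% in untreated WT. Ramp2 was at 0 FPKM in 7 of the 12 libraries, and its highest value, 0.449 FPKM, was in WT replicate 3 with oxLDL alone in its group. It did not pass the filter on low counts. Ramp3 passed it, at no more than 0.213 FPKM in any library, and was not called in any comparison.

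**Figure D2:**
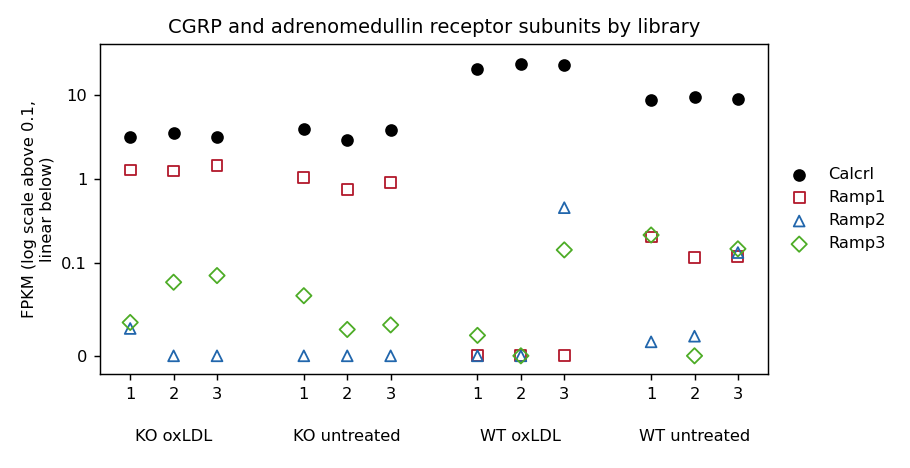
FPKM of Calcrl and its partners Ramp1, Ramp2 and Ramp3 in each library (replicates 1 to 3 in each group), on an axis that is linear below 0.1 and logarithmic above. Calcrl was between 20.0 and 23.4 FPKM in WT with oxLDL, where Ramp1 was at 0, and between 2.90 and 3.89 FPKM in the KO libraries, where Ramp1 was between 0.748 and 1.44 FPKM.

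Set side by side, 5 of the 6 genes were called with oxLDL in WT, 4 higher and 1 lower, in a comparison in which 51.2% of the 17291 genes tested were called (23.9% higher and 27.2% lower). For KO against WT with oxLDL all 6 were called, 2 higher and 4 lower, against 57.9% of all genes (30.6% higher and 27.4% lower). For KO against WT untreated 5 were called, 2 higher and 3 lower, against 31% of all genes (14.8% higher and 16.2% lower). The genes were chosen with these comparisons known, so nothing is read from these counts. The median log2 change of the 6 genes was 0.82 with oxLDL in WT, -0.97 for KO against WT with oxLDL and -0.27 for KO against WT untreated, where the medians over all genes tested were -0.06, 0.05 and -0.01. The comparisons share libraries: untreated WT enters the first and the third, and WT with oxLDL the first and the second. With library totals in place of TMM scaling the median gene moved to -0.46, 0.36 and -0.12, and the share of called genes that were higher was 21.1, 69.5 and 31.5%, in place of 46.8, 52.8 and 47.8%. Under that scaling each gene called above kept its direction and its call, but the smaller changes shrank: with oxLDL in WT Ednrb was at 0.34 and Ece1 at 0.49, and for KO against WT with oxLDL Ece1 was at -0.47.

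**Figure D3:**
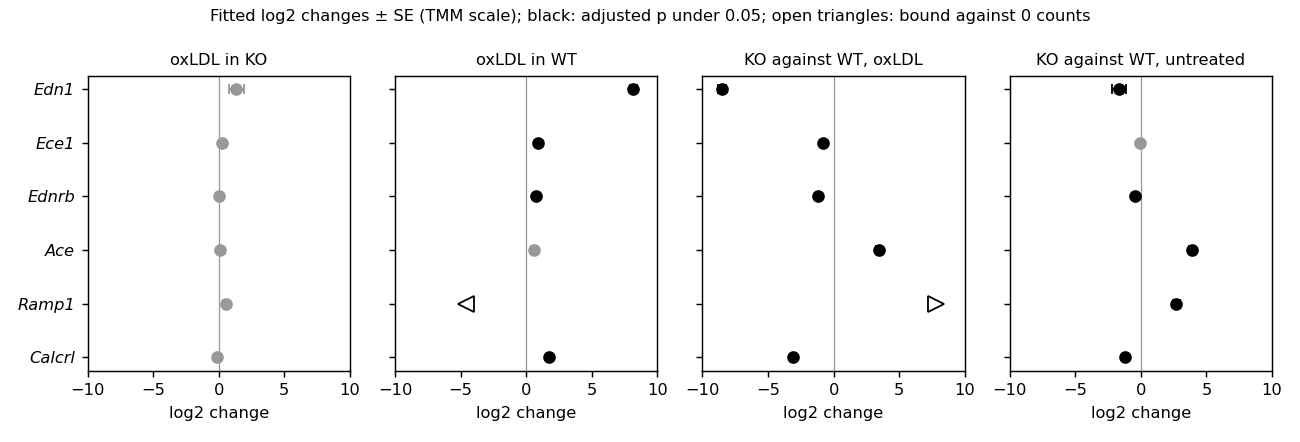
Fitted log2 changes with SE (horizontal axis, TMM scale) of the 6 genes in 4 comparisons; black points were called at an adjusted p under 0.05, grey points were not, and SE bars shorter than a point are hidden by it. Open triangles give Ramp1 with the group at 0 counts set at the floor, and all 6 points are grey for oxLDL in KO.

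In KO cells none of the 6 genes was called with oxLDL, in a comparison in which 0.0116% of genes tested, 2 in all, were called. By edgeR's quasi-likelihood test 2 of the 6, Edn1 and Ramp1, had an unadjusted p under 0.05, as did 1211 of all 17291 genes tested (7%), and DESeq2 and limma called 0 of the 6. Edn1 was at 1.35 ± 0.56 log2 (edgeR adjusted p = 0.628) and Ramp1 at 0.56 ± 0.25 (edgeR adjusted p = 0.705). Both were higher on average with oxLDL, and for Ramp1 every KO library with oxLDL was above every untreated one. Ece1 was at 0.22 ± 0.12 (edgeR adjusted p = 0.772), with its KO groups also apart, and Calcrl was at -0.12 ± 0.09 (edgeR adjusted p = 0.916). Ace, at 0.09 ± 0.19 (edgeR adjusted p = 0.998), and Ednrb, at 0.02 ± 0.07 (edgeR adjusted p = 0.999), had overlapping groups. The share of all genes tested whose KO groups lay apart was not counted, so nothing is read from the separations of Ramp1 and Ece1. A missed threshold does not show that these levels were equal.

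The test of the difference between the genotypes in their oxLDL response, the interaction, called 5 of the 6 genes, against 41.7% of all genes tested (22.1% higher and 19.6% lower). The 6 genes were chosen with their changes over the 4 groups known, so nothing is read from this count either. Subtracting the WT change from the KO change gave -6.83 ± 0.88 log2 for Edn1, -1.83 ± 0.13 for Calcrl, -0.73 ± 0.10 for Ednrb and -0.68 ± 0.16 for Ece1. For Ramp1, with WT with oxLDL set at the floor, the same subtraction on summed counts gave 5.17, which includes the uncalled change in KO and is not a bound. Ace was at -0.49 ± 0.31 and was not called. With library totals Ednrb was at -0.31 and kept its call. The call of Ece1 was lost with library totals (-0.26) and with limma on log2(FPKM + 1) (-0.21). With library totals the median gene moved to 0.49 from 0.08, and 79.6% of called genes, in place of 53%, were higher.

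Other genes of the 3 systems were taken from lists of 40 genes, of which 28 had a row and 18 passed the filter. These lists too were chosen with earlier results of these data known. The p-values printed for their genes are therefore a description and not independent support. In the angiotensin and kinin list 12 of 22 genes were tested, and with oxLDL in WT 4 rose and 1 fell, with a median of 0.11 log2, where 23.9% of all genes tested rose and 27.2% fell. Agtrap, whose product binds the angiotensin II type 1 receptor and takes it into the cell, was at 90.9 ± 1.1 FPKM in WT with oxLDL, against 58.4 ± 2.7 FPKM in untreated WT (SD, n = 3 each), a change of 1.05 ± 0.05 log2 (edgeR adjusted p = 8.42e-11). Prcp, which encodes a carboxypeptidase that can remove the last residue of angiotensin II, fell to 10.3 ± 0.80 FPKM in WT with oxLDL, against 26.4 ± 0.75 FPKM in untreated WT, by 0.95 ± 0.05 log2 (edgeR adjusted p = 1.73e-09). Atp6ap2, the prorenin receptor gene, was at 0.22 ± 0.05 and Lnpep, an aminopeptidase gene, at 0.20 ± 0.05. Both were called on the TMM scale and were lower, at -0.19 and -0.21, with library totals alone. Nln, the remaining gene called as rising, was at 0.16 ± 0.06. Its FPKM were lower with oxLDL, at 4.89, 5.21 and 5.33, against 5.98, 6.48 and 5.94 in untreated WT. Of the receptor genes, Agtr1a, the angiotensin II type 1a receptor gene, had at most 16 counts in a library and was not tested. The kinin B1 receptor gene Bdkrb1 was tested, with at most 32 counts in a library, and was not called in any comparison.

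For KO against WT untreated, 3 of the 12 genes of the angiotensin and kinin list were higher and 3 lower, with a median of 0.03 log2, where 14.8% of all genes tested were higher and 16.2% lower. Agtrap was at -1.16 ± 0.05 (edgeR adjusted p = 5.32e-11), with 24.3 ± 0.50 FPKM in untreated KO and 58.4 ± 2.7 FPKM in untreated WT. Anpep, which encodes aminopeptidase N, an enzyme that trims angiotensin III, was at 0.88 ± 0.07 (edgeR adjusted p = 1.78e-07), with 918 ± 30 FPKM in untreated KO and 537 ± 39 FPKM in untreated WT. The mast cell protease genes Cma1, whose product can also make angiotensin II, and Cpa3 were lower in KO, at -2.03 ± 0.32 (edgeR adjusted p = 0.000153) and -1.52 ± 0.33 (edgeR adjusted p = 0.00227). Both stayed at or below 1.66 FPKM in every library. The 6 other mast cell markers summed to 0.526 to 0.989 FPKM in KO with oxLDL, 0.616 to 0.686 in untreated KO, 4.97 to 5.03 in WT with oxLDL, against 2.55 to 3.18 in untreated WT, and their part in these 2 differences was not tested. Hdc, the histidine decarboxylase gene, made up 3.51 ± 0.12 FPKM of the sum in WT with oxLDL (SD, n = 3). Among these markers Fcer1a was at 0 in every untreated WT library and Ms4a2 at 0 in every KO library.

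With oxLDL the KO libraries differed from WT in 8 of the 12 genes, 4 higher and 4 lower, with a median of 0.04 log2. Of all genes tested 57.9% were called (30.6% higher and 27.4% lower). Lnpep was among the lower on the TMM scale, at -0.16 ± 0.05. Its FPKM were higher in KO, at 18.7, 19.5 and 19.5, against 16.2, 18.0 and 18.1 in WT with oxLDL. Agtrap was at -2.16 ± 0.05 (edgeR adjusted p = 1.66e-14) and Cma1 at -2.18 ± 0.32 (edgeR adjusted p = 3.35e-05). Prcp was higher in KO by 0.98 ± 0.05 (edgeR adjusted p = 7.41e-10). Cpa3 was at -1.14 ± 0.33 (edgeR adjusted p = 0.00842) and was no longer called without WT replicate 3 with oxLDL (-0.80). In KO cells 0 of the 18 genes of the 3 lists were called with oxLDL by edgeR's quasi-likelihood test, 1 had an unadjusted p under 0.05, against 7% of all genes tested, and DESeq2 and limma called 0.

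In the CGRP and adrenomedullin list 6 of 11 genes were tested. With oxLDL in WT 3 rose and 1 fell, with a median of 1.08 log2, where 51.2% of all genes tested were called. Calcr, the calcitonin receptor gene, whose product can also pair with RAMP proteins, had 129, 120 and 161 counts in WT with oxLDL, against 0, 4 and 12 counts in untreated WT, and 0 counts in all 6 KO libraries. Its change with oxLDL in WT was 5.10 ± 0.81 log2 (edgeR adjusted p = 0.000393). With KO with oxLDL set at the floor, Calcr was 190-fold lower there than in WT with oxLDL, which is not a strict lower limit. Adm, the adrenomedullin gene, was at 0.649 ± 0.097 FPKM in WT with oxLDL, against 0.128 ± 0.056 FPKM in untreated WT (SD, n = 3 each), a change of 2.67 ± 0.53 log2 (edgeR adjusted p = 0.000619). With oxLDL, Adm was lower in KO than in WT, at -2.64 ± 0.52 log2 (edgeR adjusted p = 0.000552). The peptide gene Calca was not tested, with counts in a single library.

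Crcp and Gpr182 completed the called genes of that list. Crcp, which encodes a component that couples the CGRP receptor to its signal, was at 0.42 ± 0.10 log2 with oxLDL in WT (edgeR adjusted p = 0.00185), although its FPKM were 14.5 ± 0.88 in WT with oxLDL and 14.4 ± 1.3 in untreated WT. With library totals alone it was at 0.02 and was not called. Gpr182, an atypical chemokine receptor gene, had 29 to 34 counts in KO with oxLDL, 54 to 88 in untreated KO, 0 to 6 in WT with oxLDL, against 11 to 28 in untreated WT. It was at -2.25 ± 0.66 log2 with oxLDL in WT (edgeR adjusted p = 0.0107), a call lost with the 2 groups alone (-2.27). It was at 1.65 ± 0.56 for KO against WT untreated (edgeR adjusted p = 0.0379), a call lost without any 1 of those 6 libraries (1.42 to 1.81). For KO against WT untreated 1 gene of the list was higher and 1 lower, with a median of 0.26 log2. Of all genes tested, 14.8% were higher and 16.2% lower in that comparison. The lower gene of the list was Calcr, with 0 counts in untreated KO and 16 in untreated WT. It was 5.43-fold lower with untreated KO set at the floor, which is not a strict lower limit. Replicate 1 of untreated WT was also at 0, so the groups overlapped. The call of Calcr was lost without any 1 of 5 of these 6 libraries. For KO against WT with oxLDL 1 was higher and 3 were lower, with a median of -1.01 log2, where 57.9% of all genes tested were called. Crcp, one of the lower ones at -0.45 ± 0.10, lost its call there with library totals (-0.15) and with limma on log2(FPKM + 1) (-0.14).

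**Figure D4:**
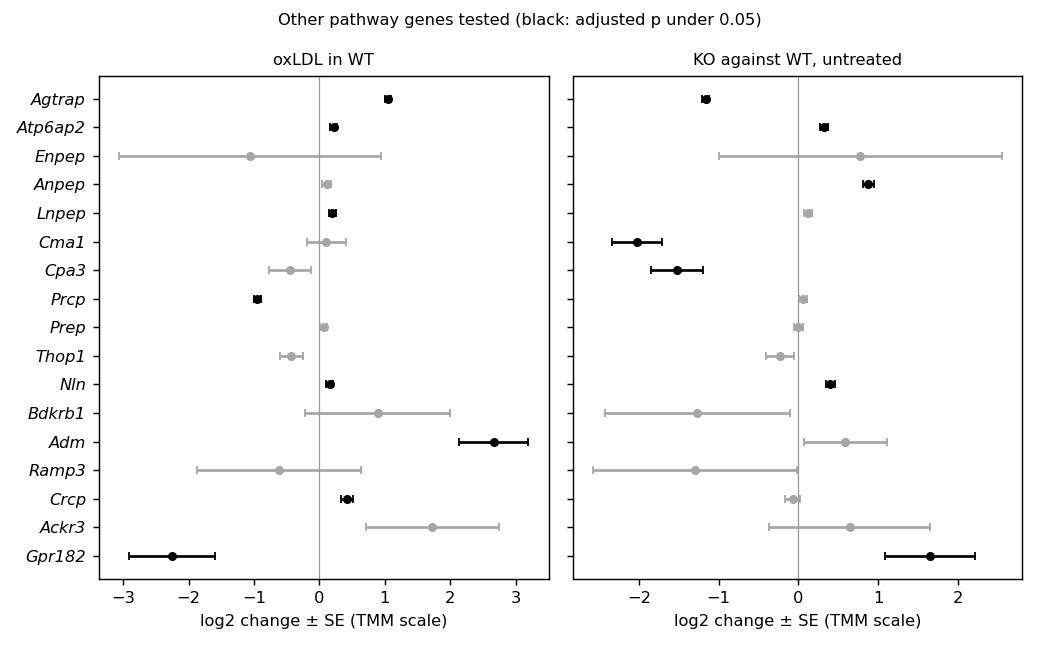
Fitted log2 changes with SE (horizontal axes, TMM scale) of 17 of the 18 tested genes of the pathway lists, with oxLDL in WT (left) and for KO against WT untreated (right); Calcr is left out because it had 0 counts in untreated KO. Black points were called at an adjusted p under 0.05: Agtrap was at 1.05 on the left and -1.16 on the right, and Adm was at 2.67 on the left and not called on the right.

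The genes whose level followed each of the 6 most closely over the 12 libraries were found by Pearson correlation of log2(CPM + 1) on the TMM scale. The libraries fall into groups, so many genes follow any such pattern, and the values describe likeness only. Edn1 was followed by Il1a (r = 0.999), the interleukin-1α gene, Zc3h12a (0.998), which encodes an enzyme that degrades cytokine mRNA, and Lipg (0.998), the endothelial lipase gene. Il1a had 26.8 FPKM in KO with oxLDL, 27.7 in untreated KO, 735 in WT with oxLDL and 33.7 in untreated WT, so its rise in WT with oxLDL started from a level well above that of Edn1. Calcrl was followed by Spred1 (0.999), which encodes a brake on the MAP kinase pathway, Gfpt1 (0.997), an enzyme gene of the hexosamine pathway, and Ifih1 (0.997), a sensor of viral RNA. Ednrb was followed by Kmt5a (0.998), a histone methyltransferase gene, Tagln2 (0.996), an actin-binding protein gene, and Mlkl (0.995), the effector of necroptosis.

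Ace and Ramp1, the genes that were high in KO, had other neighbours. Ace was followed by Cyp51 (0.994), an enzyme gene of cholesterol synthesis, Trf (0.990), the transferrin gene, and Gpr137b-ps (0.989). Ramp1 was followed by Adgrg3 (0.988), an adhesion receptor gene, Man2b1 (0.987), a lysosomal mannosidase gene, and Mfge8 (0.985), whose product bridges apoptotic cells to phagocytes. Mfge8 had 181 FPKM in KO with oxLDL, 168 in untreated KO, 18.9 in WT with oxLDL and 40.8 in untreated WT, the same order of groups as Ramp1. Ece1 had the least close neighbours, Acin1 (0.980), Ppfia1 (0.976) and Gm8388 (0.973). The likeness of Acin1 held on the TMM scale alone: its FPKM were 15.5 in KO with oxLDL, 15.2 in untreated KO, 14.3 in WT with oxLDL and 16.5 in untreated WT. Ece1 had 76 genes with r over 0.95, where Edn1 had 1225, Ednrb 1400, Ace 192, Ramp1 368 and Calcrl 1343.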

How the data were processed

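The authors deposited one table that holds a raw read count and an FPKM per gene for all 12 libraries, per the file headers. Poly(A) RNA was sequenced paired-end on an Illumina NovaSeq, per the labels' protocols, whose text speaks of an adipose RNA that does not match the macrophage source. Reads were aligned with HISAT2 2.0 and Bowtie 0.12.2 to mm8, per the submitters' processing notes. Of 21990 genes matched by Entrez identifier, 99.93% overlapped their GRCm38.p6 position in RefSeq, so positions are given as GRCm38. How reads were counted, with which annotation and strand, is not given in the sources used here; reads of overlapping or antisense genes could not be told apart. No pair of libraries held identical values.

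Deposited counts were tested with edgeR 4.0.16 (quasi-likelihood, TMM, filterByExpr, which kept 17291 genes) in R 4.3.3, with the 4 groups fitted together and no block. A gene was called where its p, adjusted by Benjamini-Hochberg over the whole table tested, was under 0.05. Levels are the deposited FPKM as mean ± SD or by library. They carry no TMM scaling, and a ratio of FPKM can differ from a fitted log2 change. Precision follows from 53588814 to 76809931 counts per library, and floors cover counting error in the group at 0 only. With 3 libraries a group, an exact 2-sided permutation test has a smallest p of 0.1, so calls rest on the fit across all genes. The test was checked on simulated counts.

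The 6 genes, the pathway lists and the marker lists were chosen with earlier results of these data known. From each pathway list, called genes were named, at most the 4 largest per comparison, and for each of the 6 genes the 3 closest by correlation. Ednra, Edn3, Ece2, Mme, Agtr1a, Bdkrb1, Calca, Ramp2, Ramp3 and the macrophage, endothelial and mast cell markers were named outside that rule, after their values were seen. So were Nln with oxLDL in WT, and Lnpep in the interaction and for KO against WT with oxLDL. DESeq2 1.42.0, limma 3.58.1 on log2(FPKM + 1) or log2(FPKM + 0.1), RLE factors, library totals, other filters, a replicate block, the 2 groups alone and leaving out each library were tried.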

Additional observations from a re-analysis of the deposited data

Results flagged for a closer look

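The oxLDL response differed between the genotypes by the interaction test of edgeR's fit (KO change minus WT change, called at an adjusted p under 0.05) for these genes. Among the 6 genes, chosen with the data known, the difference was -6.83 log2 for Edn1, -1.83 for Calcrl, -0.73 for Ednrb and -0.68 for Ece1. For Ramp1 it was 5.17 log2 with WT with oxLDL set at the floor of 3 counts, a value that includes the uncalled change in KO and is not a bound. Among the pathway lists it was -3.23 for Adm, -0.99 for Agtrap, 0.92 for Prcp, 0.81 for Thop1, a peptidase gene, -0.39 for Crcp and -0.28 for Atp6ap2. Lnpep, beyond the 4 largest of its list, was also called, at -0.28. The Lnpep interaction was not tried under other settings. The Lnpep change with oxLDL in WT, which enters it, turned round to -0.21 with library totals alone. The values of Crcp and Atp6ap2 turned round with library totals alone, at 0.03 and 0.13.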

How the results depend on the processing

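Over 10 other settings and the leaving out of single libraries, 487 of 510 values of the 6 genes kept their direction and side of the threshold. The number of the 6 called ranged from 5 to 6 with oxLDL in WT, 4 to 5 for KO against WT untreated, 4 to 6 for the interaction, and stayed at 6 for KO against WT with oxLDL and 0 for oxLDL in KO. Over the same settings 8176 to 10544 of all genes were called with oxLDL in WT and 4553 to 5729 for KO against WT untreated. The interaction called 6677 to 9008, and KO against WT with oxLDL 9339 to 10840. All genes called with oxLDL in KO, 2 as reported, numbered 97 with DESeq2, 61 with the 2 groups alone, 1 with no filter on low counts, 1 and 0 with limma on log2(FPKM + 1) and log2(FPKM + 0.1), 0 with the replicate block, and 0 to 3 with 1 library left out. The untreated difference of Edn1 was no longer called with limma (-0.14 with a pseudocount of 1, -0.73 with 0.1), with the replicate block (-1.67) or with the 2 groups alone (-1.64). The Ece1 interaction was lost with library totals and with limma on log2(FPKM + 0.1) (-0.27). Ace with oxLDL in WT was called with DESeq2 and RLE factors (0.63 each), and its interaction without WT replicate 2 with oxLDL (-0.72), whereas limma gave 0.042, and 0.0047 with a pseudocount of 0.1. With oxLDL in KO, leaving out 1 library moved Ednrb between -0.017 and 0.064 and Ace between -0.037 and 0.17.

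On the FPKM scale or with library totals some pathway genes turned round: with oxLDL in WT Atp6ap2 to -0.19 and Lnpep to -0.21 (-0.20 with limma on log2(FPKM + 1)), and in the interaction Atp6ap2 to 0.13 (0.12 with limma) and Crcp to 0.026 (0.018 with limma, 0.019 with a pseudocount of 0.1). Gpr182 with oxLDL in WT was no longer called with limma without a filter on low values (-0.085). The Crcp interaction was also lost with no filter on low counts (-0.37), with the block (-0.39) and without any 1 of 6 libraries. Wee1 was called lower in KO than in WT with oxLDL, at -0.53 log2. It kept that direction but lost the call with library totals (-0.23) and limma (-0.14, and -0.22 with a pseudocount of 0.1). The causes were not tested.

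The sample titles give replicates a number and state no pairing. The correlation of same-numbered deviations ran from -0.14 to 0.10 over 18 pairs, against -0.10 to 0.18 for other pairs. With 3 libraries a group these values cannot show whether same-numbered libraries were handled together. Replicate 2 had the lowest library total in both WT groups. With the replicate block 8603, 9767, 5056 and 6927 genes were called for oxLDL in WT, KO against WT with oxLDL, KO against WT untreated and the interaction. Counts under 30 in most libraries limit Edn1 outside WT with oxLDL, Adm, Gpr182 and Calcr.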
